A study of Homo sapiens with 30 samples.

Results

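SIX3, SIX6, RAX, HESX1, LHX2 and VAX1 encode homeodomain transcription factors of the eye field and the most rostral forebrain, and the data are the positions of open chromatin peaks around these 6 genes. Each window was the GRCh38 gene with 50 kb added on both sides. Peaks of the 10 deposited lists that touched a window were taken, and peaks of different lists that overlapped by at least 1 bp were joined into merged regions. The windows held 164 merged regions of 493444 on chromosomes 1 to 22, X and Y. A region or gene is called open in a list where a peak of that list lies there.

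In the anterior neural plate, SIX3 keeps Wnt signalling low and protects rostral identity, and its close relative SIX6 acts later in the retina, hypothalamus and pituitary. RAX is needed to specify retinal progenitors, and LHX2, a LIM-homeodomain factor, takes the eye field on to the optic vesicle and later acts in the cortex. HESX1, a paired-like repressor of the anterior neural plate and pituitary, is also transcribed in pluripotent cells. VAX1 marks the optic stalk and ventral forebrain, where it holds back retinal fate. Retinoic acid, FGF and Wnt signals are known to promote caudal neural identity and to limit this rostral set.

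ATAC-seq, in which the Tn5 transposase inserts adapters into accessible DNA, was applied to wild-type H1 cells, an established human embryonic stem cell line. The 10 populations had 3 libraries each and 1 deposited peak list each, so each value below is a single value per population. There is no spread between replicates, no test was possible, and the read depth of the lists is unknown. The hPSC list (day 0) came from undifferentiated cells, and the DE list (day 1) from definitive ectoderm made in CDM2 medium with the TGF-beta receptor inhibitor A8301, the MEK inhibitor Trametinib, the Porcupine inhibitor C59 and the BMP receptor inhibitor LDN193189. The aNE list (day 2) is anterior neural ectoderm, made from DE with A8301, LDN193189, C59 and Thiazovivin. The pNE list (day 2) is posterior neural ectoderm, made from DE with A8301, LDN193189, FGF2, the tankyrase inhibitor XAV939, the retinoic acid receptor agonist TTNPB and Thiazovivin. The 6 day 4 lists are aNE or pNE moved to telencephalon (T), midbrain (M) or hindbrain (H) medium, named aNE_T, aNE_M, aNE_H, pNE_T, pNE_M and pNE_H. The forebrain medium held XAV939, LDN193189 and FGF2 on day 3, and the composition of the other media is not given in the sources used here. Cells kept past day 2 were plated less densely in the anterior than in the posterior protocol, so plating density and origin cannot be told apart.

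The lists held 167792 peaks (aNE) to 313095 peaks (pNE_H) on the main chromosomes and covered 75.5 Mb to 129 Mb. The pNE_H list stood apart in length, and for that reason covered bases are also given as a share, in bases per Mb covered by the whole list. The narrowest peak was 122 bp, 122 bp and 126 bp wide in the aNE-derived day 4 lists and 115 bp, 114 bp and 109 bp wide in the pNE-derived ones, so a difference in processing and origin cannot be told apart either. The summed share of pluripotency gene windows was 674 in hPSC, 532 in DE, 548 in aNE and 471 in pNE, and 386 to 465 on day 4. Every marker gene of the pluripotent, neural, mesendoderm, surface ectoderm and neuron lists had a peak in its window in every peak list, so open windows do not tell these cell types apart. In such bulk libraries, fewer cells with an open region and a less open region in each cell cannot be told apart.

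All 6 windows were open in all 10 populations, undifferentiated cells included. Together they held 100 peaks in hPSC, 113 in DE, 90 in aNE, 97 in pNE, 103 in aNE_T, 105 in aNE_M, 87 in aNE_H, 95 in pNE_T, 86 in pNE_M and 108 in pNE_H. The summed covered bases ranged from 43195 in aNE_H to 55098 in pNE_H. As a share of the list the sum was highest in aNE (630.5) and aNE_T (627.8) and lowest in pNE_H (426.5). The mesendoderm (558 and 406), neural ectoderm (867 and 646) and neuron markers (416 and 303) were also highest in aNE and lowest in pNE_H. This order was thus not particular to the 6 genes. The pluripotency markers were highest in hPSC (674), the surface ectoderm and neural crest markers lowest in DE (605), and 20 caudal genes highest in pNE_T (2737). Of the 164 merged regions, 47 (28.7%) were open in all 10 lists, against 16.5% of all merged regions. A further 38 were open in 1 list only, and the share of all merged regions that were so was not computed. Regions open everywhere numbered 10 of 37 at SIX3, 4 of 14 at SIX6, 7 of 20 at RAX, 8 of 20 at HESX1, 8 of 42 at LHX2 and 10 of 31 at VAX1.

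**Figure D1:**
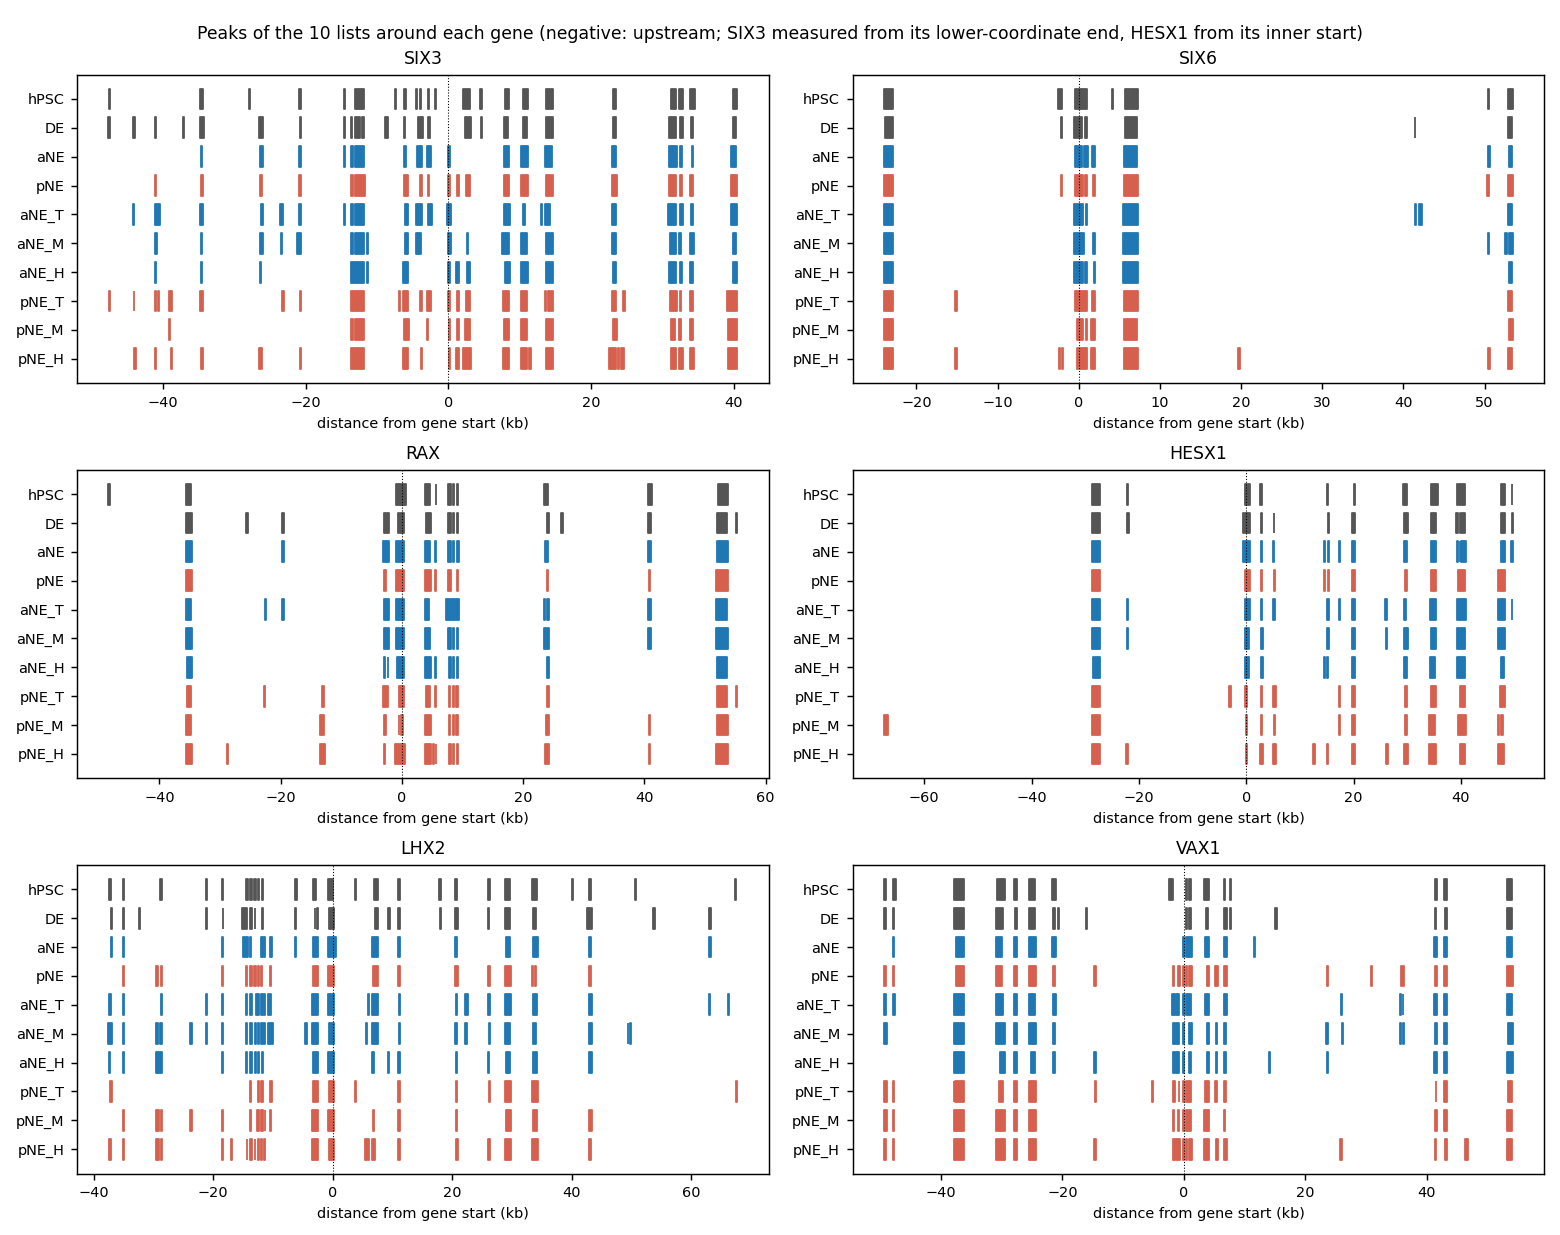
Peaks of each list around the 6 genes, with 1 row per list, grey for days 0 and 1, blue for aNE and aNE-derived lists and red for pNE and pNE-derived lists. The x axis is the distance from the gene start in kb, negative upstream (for SIX3 from its lower-coordinate end, for HESX1 from its inner start). Most tall columns run through all 10 rows, as the 47 regions open in every list do, and a few columns, such as the one at -13.1 kb from RAX, are in the 3 lowest rows only.

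SIX3 lies at chr2:44941702-44946071, with the noncoding genes LINC01833 and SIX3-AS1 in its window. Its covered bases were 9706 in hPSC, 9807 in DE, 9881 in aNE, 10054 in pNE, 11483 in aNE_T, 10303 in aNE_M, 9362 in aNE_H, 12231 in pNE_T, 9171 in pNE_M and 13038 in pNE_H. The window total thus differed little over days 0 to 2, while single regions came and went inside it. The region at the lower-coordinate end of the gene, chr2:44941581-44942109, had no peak in hPSC or DE. It had 337 bp in aNE, 292 bp in pNE, 529 bp in aNE_T, 422 bp in aNE_M, 323 bp in aNE_H, 293 bp in pNE_T, 132 bp in pNE_M and 118 bp in pNE_H. This end of SIX3 was therefore open from day 2 on in both origins, and each aNE-derived list had more bases there than each pNE-derived list. The pNE_M and pNE_H peaks there were absent once each list was limited to its 167792 widest peaks, the length of the shortest list.

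Of all merged regions, 0.37% had the pattern of no peak in hPSC or DE and a peak in all 8 later lists. The region inside the SIX3 gene, chr2:44943727-44944834, ran the other way at the start. It had 1026 bp in hPSC, 660 bp in DE and 0 in aNE, against 572 bp in pNE. On day 4 it had 0 in aNE_T, 137 bp in aNE_M, 523 bp in aNE_H, 560 bp in pNE_T, 818 bp in pNE_M and 1108 bp in pNE_H. It was thus closed in aNE and in aNE grown in telencephalon medium, and open in every other list. The narrow aNE_M peak there was absent among the 167792 widest peaks of that list. The neighbouring region chr2:44942817-44943262 had 213 bp in pNE, 411 bp in aNE_H, 207 bp in pNE_T, 315 bp in pNE_M and 446 bp in pNE_H. It had no peak in hPSC, DE, aNE, aNE_T or aNE_M, so at this stretch aNE_H had the pattern of the pNE-derived lists.

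Just before the lower-coordinate end of SIX3, the region chr2:44937118-44938082 had the most bases in aNE, aNE_T and aNE_M. It had 377 bp in hPSC, 418 bp in DE, 776 bp in aNE, 299 bp in pNE, 850 bp in aNE_T, 693 bp in aNE_M, 282 bp in pNE_T and 168 bp in pNE_H, with no peak in aNE_H or pNE_M. Next to it, chr2:44938668-44939443 had 571 bp in aNE, 598 bp in aNE_T and 545 bp in pNE_T. The other lists had at most 226 bp there, and aNE_M, aNE_H and pNE_H had none, so on day 4 both telencephalon lists were high and the 2 hindbrain lists were closed. On the far side of the gene, chr2:44980722-44982182 was open in all lists, with 1356 bp in pNE_T, 1214 bp in pNE_M and 1258 bp in pNE_H. The 3 aNE-derived lists had 783 bp, 435 bp and 472 bp there, and the 4 earlier lists 370 bp to 771 bp. A further region at -38.9 kb, chr2:44902535-44903007, had a peak only in pNE_T (473 bp), pNE_M (153 bp) and pNE_H (194 bp), and only the pNE_T peak was left among the 167792 widest.

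**Figure D2:**
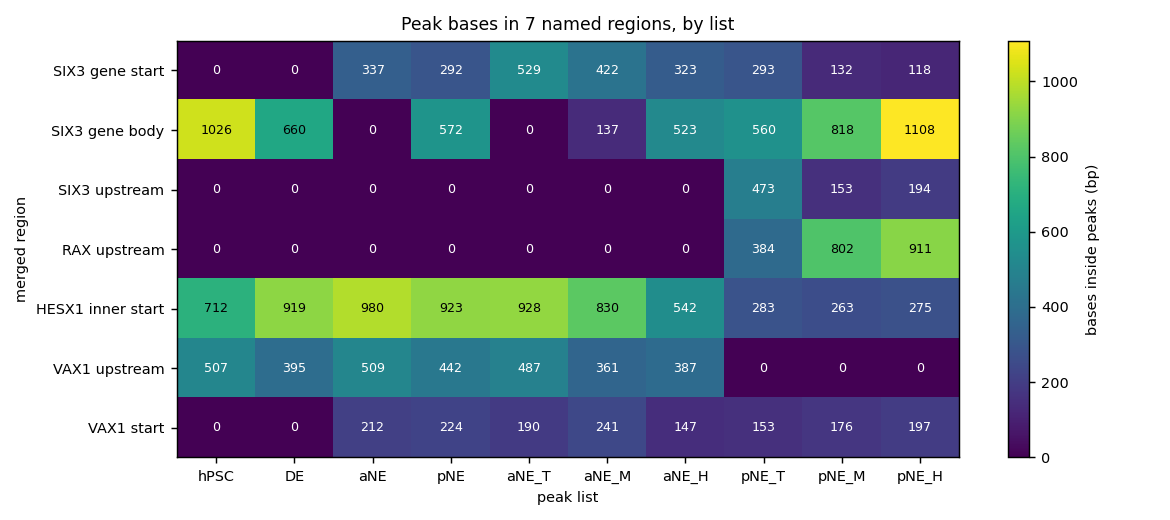
Bases inside peaks (colour and printed number, bp) in 7 named merged regions (rows) for each of the 10 peak lists (columns). The SIX3 and RAX upstream rows have values in the 3 pNE-derived columns only, and the VAX1 upstream row has 0 in those 3 columns and 361 bp to 509 bp in the other 7.

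SIX6, at chr14:60509146-60512850 on the plus strand, lies inside the larger gene C14orf39, so its peaks cannot be assigned to SIX6 alone. Its window had the fewest peaks of the 6, and its covered bases were 5212 in hPSC, 4209 in DE, 4868 in aNE, 4862 in pNE, 5265 in aNE_T, 5192 in aNE_M, 4758 in aNE_H, 5357 in pNE_T, 4461 in pNE_M and 6162 in pNE_H. The aNE and pNE values on day 2 differed by only a few bases. The region over the start, chr14:60508577-60510236, was open in every list and had from 884 bp in pNE_M to 1559 bp in pNE_T. Inside the gene, chr14:60510625-60511212 had no peak in hPSC, DE or aNE_T. It had 291 bp in aNE, 196 bp in pNE, 268 bp in aNE_M, 195 bp in aNE_H, 386 bp in pNE_T, 536 bp in pNE_M and 568 bp in pNE_H. Each pNE-derived list had more bases here than each aNE-derived list. At chr14:60514543-60516411 the order was the converse, with 1853 bp, 1847 bp and 1756 bp in the aNE-derived lists and 1628 bp, 1531 bp and 1623 bp in the pNE-derived ones.

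The SIX6 promoter is shown because most of it lay in a peak in every list, hPSC included. The sequence covers 250 bases before to 50 after the start (chr14:60508896-60509195, plus strand, RefSeq GRCh38.p14), and capitals mark the bases that lay in peaks of all 10 lists.
SIX6 promoter: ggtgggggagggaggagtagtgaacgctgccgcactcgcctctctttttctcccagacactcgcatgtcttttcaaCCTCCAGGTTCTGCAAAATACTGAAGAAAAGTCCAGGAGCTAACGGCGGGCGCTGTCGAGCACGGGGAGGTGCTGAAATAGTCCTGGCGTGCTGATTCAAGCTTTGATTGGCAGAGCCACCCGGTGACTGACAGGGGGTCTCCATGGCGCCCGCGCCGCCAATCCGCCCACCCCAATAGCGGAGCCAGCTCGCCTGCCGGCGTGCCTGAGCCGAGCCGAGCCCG
The promoter was covered over all 300 bases in 7 lists, over 224 bases in DE and over 249 bases in pNE_M and pNE_H. It held the TCF/LEF motif ATCAAAG once, at bases 178 to 184 on the reverse strand, inside the stretch in capitals. That motif is in 2.62% of all 35116 RefSeq promoters, and none of the other 5 promoters of these genes had it. A motif match describes letters and not binding.

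RAX lies at chr18:59267038-59273454 on the minus strand, with GRP and CPLX4 in its window. Its covered bases were 7288 in hPSC, 7740 in DE, 7946 in aNE, 6754 in pNE, 8738 in aNE_T, 7601 in aNE_M, 6372 in aNE_H, 6802 in pNE_T, 6702 in pNE_M and 8321 in pNE_H. The highest value was in aNE_T and the lowest in aNE_H, both of aNE origin. The region over the start, chr18:59272803-59274613, was open in every list, with 585 bp in pNE_M to 1622 bp in pNE_H, and 261 to 300 of the 300 promoter bases were covered. At -13.1 kb, chr18:59286050-59287020 had 384 bp in pNE_T, 802 bp in pNE_M and 911 bp in pNE_H and no peak in any other list. Unlike the SIX3 upstream region, it was open in all 3 pNE-derived lists also when only the 167792 widest peaks of each list were used. Of all merged regions, 2.33% were open in every pNE-derived and no aNE-derived day 4 list, against 2 of the 164 here, a count too small to set apart from that background.

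Nearer the RAX start, chr18:59275611-59276524 had no peak in hPSC. It had 631 bp in DE, 885 bp in aNE, 363 bp in pNE, 867 bp in aNE_T, 636 bp in aNE_M, 448 bp in aNE_H, 638 bp in pNE_T, 334 bp in pNE_M and 221 bp in pNE_H. It was thus open from day 1, with more bases in aNE than in pNE. In both origins telencephalon medium had the most bases there, then midbrain medium, then hindbrain medium. At -19.6 kb, chr18:59292879-59293202 had a peak in DE (311 bp), aNE (226 bp) and aNE_T (280 bp) only.

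LHX2, at chr9:124011768-124033301 on the plus strand, had the most merged regions of the 6 genes and no other protein-coding gene in its window. Its covered bases were 9315 in hPSC, 7971 in DE, 8075 in aNE, 7671 in pNE, 9920 in aNE_T, 10230 in aNE_M, 7071 in aNE_H, 6230 in pNE_T, 7183 in pNE_M and 8711 in pNE_H. The aNE_T and aNE_M values exceeded every pNE-derived value, and the aNE_H value lay among them. Its peaks numbered 25 in aNE_T and 31 in aNE_M, against 15 in pNE_T and 19 in pNE_M. At the start, chr9:124010955-124012312, the 10 lists had 838 bp to 1289 bp, and the RefSeq promoter was covered over all 300 bases in every list.

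Within LHX2, chr9:124018273-124019355 had 751 bp in hPSC, 566 bp in DE, 972 bp in aNE, 698 bp in pNE, 1050 bp in aNE_T, 900 bp in aNE_M, 284 bp in aNE_H, 194 bp in pNE_M and 426 bp in pNE_H, and no peak in pNE_T. It was widest in aNE and in aNE grown in telencephalon or midbrain medium. Upstream, chr9:124000870-124001727 had no peak in hPSC or DE, 144 bp in pNE and 289 bp in aNE. The day 4 values were 632 bp in aNE_T, 640 bp in aNE_M, 254 bp in pNE_T and 145 bp in pNE_M, and no peak in either hindbrain list. Just past the gene, chr9:124033917-124034383 had a peak only in aNE_T (467 bp) and aNE_M (264 bp). In contrast, chr9:124022621-124023116 had 427 bp, 423 bp and 496 bp in the pNE-derived lists and 221 bp, 210 bp and 356 bp in the aNE-derived ones.

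HESX1 lies at chr3:57197838-57227615 on the minus strand, with IL17RD, APPL1 and ASB14 in its window. RefSeq gives a promoter at 2 starts, an outer one at the gene's upstream end and an inner one inside the gene. The covered bases of the window were 7090 in hPSC, 7321 in DE, 7645 in aNE, 7289 in pNE, 8426 in aNE_T, 7735 in aNE_M, 6494 in aNE_H, 6539 in pNE_T, 7477 in pNE_M and 7919 in pNE_H. The outer start, a GC-rich promoter (78.7% GC, against a median of 58.7% over all promoters), had 1230 bp to 1484 bp in its region in every list. That region also overlaps APPL1, so it cannot be assigned to HESX1 alone. The inner promoter was poorer in GC (46.3%, with 3 CpG sites) and differed between the origins. Its region, chr3:57199307-57200296, had 712 bp in hPSC, 919 bp in DE, 923 bp in pNE and 980 bp in aNE. The day 4 values were 928 bp in aNE_T, 830 bp in aNE_M and 542 bp in aNE_H, against 283 bp in pNE_T, 263 bp in pNE_M and 275 bp in pNE_H. The pNE population itself was thus nearly as widely open as aNE on day 2, and the narrow peaks were those of its 3 day 4 descendants, whatever the medium.

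The inner HESX1 promoter is shown because its upstream part separates the lists. It lies at chr3:57199929-57200228 on the minus strand (RefSeq GRCh38.p14, written 5′ to 3′ along the gene). The first copy below has the homeodomain core TAATTA in capitals, and the second has in capitals the bases that lay in peaks of all 10 lists.
HESX1 inner promoter, TAATTA in capitals: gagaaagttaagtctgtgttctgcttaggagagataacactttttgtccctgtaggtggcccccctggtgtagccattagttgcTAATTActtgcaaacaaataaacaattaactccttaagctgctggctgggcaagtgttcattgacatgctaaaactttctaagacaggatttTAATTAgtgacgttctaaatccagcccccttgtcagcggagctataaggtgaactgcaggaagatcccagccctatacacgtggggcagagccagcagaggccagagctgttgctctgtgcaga
HESX1 inner promoter, bases in all 10 lists in capitals: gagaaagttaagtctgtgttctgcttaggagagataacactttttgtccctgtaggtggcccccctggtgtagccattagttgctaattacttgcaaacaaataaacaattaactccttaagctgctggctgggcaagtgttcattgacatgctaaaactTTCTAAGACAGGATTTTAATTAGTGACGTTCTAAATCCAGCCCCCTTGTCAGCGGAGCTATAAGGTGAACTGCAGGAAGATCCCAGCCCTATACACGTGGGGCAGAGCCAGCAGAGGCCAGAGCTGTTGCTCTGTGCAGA
TAATTA reads the same on both strands, and it is in 4.84% of all promoters and in 1 of the 6 promoters of these genes. The inner HESX1 promoter held it at bases 85 to 90 and again at bases 177 to 182. The second site was covered by peaks of all 10 lists. The first was covered in the 7 lists of days 0 to 2 and of aNE origin and in no pNE-derived list, where the peaks began at base 116 (pNE_T), 161 (pNE_M) and 155 (pNE_H) of the promoter. The aNE-derived peaks covered 300, 282 and 278 of the 300 bases, and the pNE-derived ones 185, 140 and 146. Among 19313 promoters with a peak in all 6 day 4 lists, 1.4% had more covered bases in every aNE-derived than in every pNE-derived list. A promoter covered over all 300 bases in a pNE-derived list cannot have this order. In the day 4 lists, 42.9% (pNE_M) to 47.8% (pNE_H) of all promoters were fully covered. For merged regions open in all 6 day 4 lists, which are not limited to 300 bases, the share with this order was 6.42%. Among the 167792 widest peaks of each list, all 10 lists kept a peak at the inner start. With only the wider 50% of each list's peaks, the 3 pNE-derived lists had none there and the other 7 kept one. The pNE-derived peaks (283 bp, 263 bp and 275 bp) were just below the median widths of their lists (287 bp, 267 bp and 284 bp). Their loss at that cutoff therefore adds nothing to the widths.

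VAX1 lies at chr10:117128520-117138270 on the minus strand, with SHTN1 and MIR3663HG in its window. Its covered bases were 9603 in hPSC, 8337 in DE, 9179 in aNE, 10676 in pNE, 10896 in aNE_T, 10558 in aNE_M, 9138 in aNE_H, 8634 in pNE_T, 8792 in pNE_M and 10947 in pNE_H. On day 2 its aNE value was below its pNE value, at 0.86 times, the lowest such ratio of the 6 genes. The start, chr10:117138221-117138471, had no peak in hPSC or DE, then 212 bp in aNE, 224 bp in pNE, 190 bp in aNE_T, 241 bp in aNE_M, 147 bp in aNE_H, 153 bp in pNE_T, 176 bp in pNE_M and 197 bp in pNE_H. The start thus had a peak from day 2 on in both origins, and the values of the 2 origins overlapped on day 4. The area around it was not closed before. Close by inside the gene, chr10:117136888-117137991 was open in all 10 lists, with 651 bp in hPSC and 530 bp in DE. Upstream, chr10:117139754-117140791 had 811 bp in hPSC and no peak in DE.

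The VAX1 promoter is shown because it was the only one of these promoters without a peak on days 0 and 1. It lies at chr10:117138221-117138520 on the minus strand (RefSeq GRCh38.p14), and capitals mark bases 119 to 252, which lay in peaks of all 8 lists from day 2 on.
VAX1 promoter: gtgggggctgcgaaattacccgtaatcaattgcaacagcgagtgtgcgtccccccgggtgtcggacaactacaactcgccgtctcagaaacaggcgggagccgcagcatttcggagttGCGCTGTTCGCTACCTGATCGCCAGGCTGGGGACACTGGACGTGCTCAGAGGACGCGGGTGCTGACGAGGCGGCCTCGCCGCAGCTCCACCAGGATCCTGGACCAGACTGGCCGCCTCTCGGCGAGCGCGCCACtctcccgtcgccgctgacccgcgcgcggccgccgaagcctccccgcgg
Of 35116 promoters, 59 (0.168%) had no peak in hPSC or DE and a peak in each of the 8 later lists. The VAX1 start peaks were narrow: among the 167792 widest peaks of each list 5 lists kept one, and among the wider 50% none did. None of the 6 promoters held the OTX motif TAATCC, the POU octamer ATGCAAAT, the SOX motif ACAATGG or the retinoic acid receptor repeat (AGGTCA repeated in the same direction with 5 bases between), searched on both strands. These are in 6.36%, 1.77%, 3.16% and 0.0057% of all promoters. No match says only that these letters are not in the 300 bases.

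**Figure D3:**
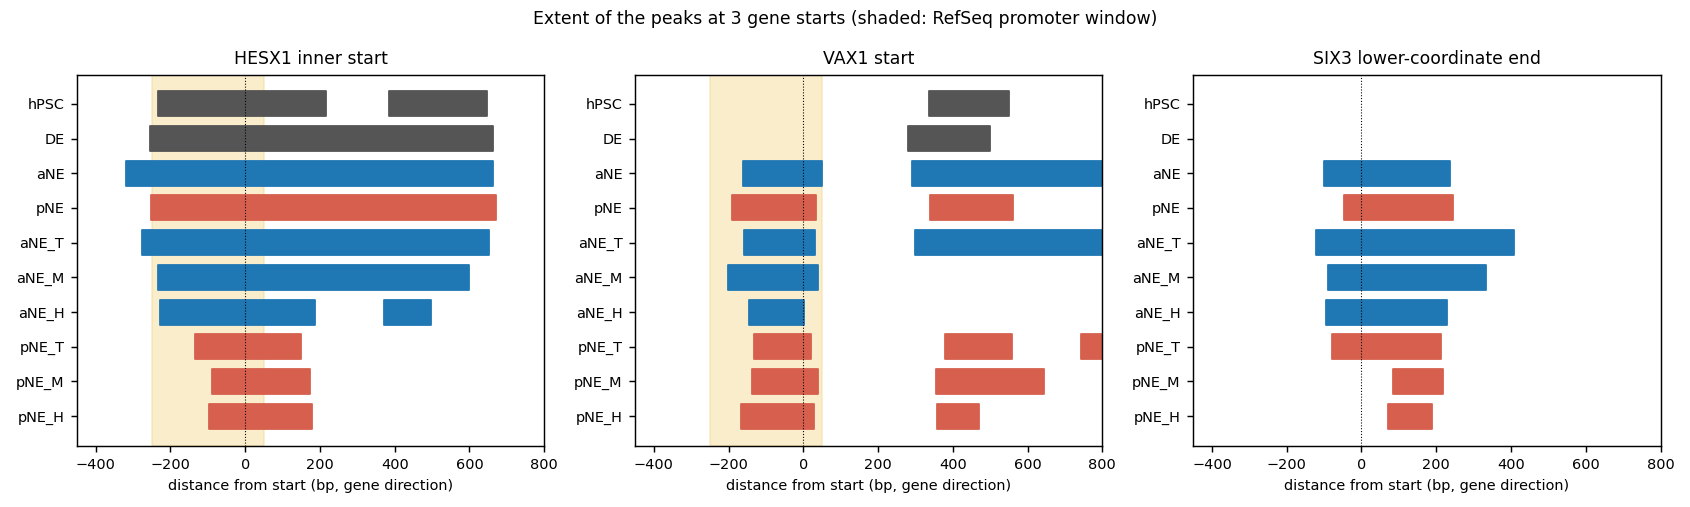
Extent of the peaks (bars, 1 row per list) at the inner HESX1 start, the VAX1 start and the lower-coordinate end of SIX3. For HESX1 and VAX1 the x axis is the distance from the start in bp in the direction of the gene. For SIX3 it runs from the lower-coordinate end toward higher coordinates. The shaded band in the HESX1 and VAX1 panels is the RefSeq promoter window of 300 bases, and SIX3 has no promoter entry and no band. Of the HESX1 bars over the start, the pNE-derived ones are the shortest, at 283 bp, 263 bp and 275 bp. The VAX1 and SIX3 panels have no bar across the dotted line in hPSC and DE.

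Further regions near VAX1 followed origin or day. At -21.4 kb, within MIR3663HG, chr10:117159388-117159907 had 507 bp in hPSC, 395 bp in DE, 509 bp in aNE, 442 bp in pNE, 487 bp in aNE_T, 361 bp in aNE_M and 387 bp in aNE_H, and no peak in pNE_T, pNE_M or pNE_H. This was the only region of the 164 that was open in every aNE-derived and no pNE-derived day 4 list, a pattern of 0.633% of all merged regions, about the share that 1 of 164 is. As at the inner HESX1 start, pNE itself was open on day 2. Just upstream of the start, chr10:117138984-117139557 had no peak in hPSC, DE or aNE and 269 bp in pNE. The day 4 values were 499 bp in aNE_T, 565 bp in aNE_M, 501 bp in aNE_H, 136 bp in pNE_T, 191 bp in pNE_M and 508 bp in pNE_H, so aNE cells had a peak there by day 4 in every medium. Inside the gene, chr10:117134082-117134917 was open in all lists and had 761 bp, 783 bp and 833 bp in the pNE-derived lists, against 615 bp, 294 bp and 384 bp in the aNE-derived ones.

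The day 2 comparison set anterior against posterior neural ectoderm. In covered bases, 4 of the 6 genes (SIX6, RAX, HESX1 and LHX2) had more in aNE than in pNE, against 33.6% of the 19604 protein-coding genes with a peak. The SIX6 difference was a few bases, and the aNE to pNE ratio of the 6 genes ran from 0.86 at VAX1 to 1.18 at RAX, with a median of 1.03. The median was 0.95 over all genes, 0.91 over 20 other forebrain and eye field genes and 0.92 over 20 caudal genes. No member reached 1.5 times in either direction, which 0.964% of genes did for aNE over pNE and 4.92% for pNE over aNE. Scaled to the length of the list, 5 of 6 (all but VAX1) had the higher share in aNE, against 70.7% of all genes.

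Of the forebrain list, 6 of 20 genes had more covered bases in aNE: OTX2, FEZF1, VAX2, SP8, FOXD1 and DLX5, and of the caudal list 2 of 20. As a share of the list the counts were 12 of 20 and 16 of 20, so the order of these lists turned with the scale. OTX2, which specifies forebrain and midbrain, had 7784 in aNE and 6723 in pNE. PAX6, a master regulator of eye development, had 8878 in aNE and 9868 in pNE. By region, 12 of the 164 had a peak in aNE but none in pNE, against 5.54% of all merged regions. The converse held for 19, against 12.7%, and 9 of these 19 were at VAX1. Both shares of the 164 lie near the background.

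From day 0 to day 2 the windows kept most of their coverage. DE had more covered bases than hPSC at 3 of the 6 genes (SIX3, RAX and HESX1), against 62.0% of all genes. LHX2, SIX6 and VAX1 had fewer in DE, and the median ratio of DE to hPSC was 0.94 over the 6 genes and 1.04 over all genes. From DE to aNE, all 6 genes had more covered bases, against 10.5% of all genes, although the aNE list was the shortest. The ratios had a median of 1.04, against 0.85 over all genes 0.98 over the forebrain list, where 8 of 20 had more, and 1.02 over the caudal list, where 11 of 20 had more. The neural ectoderm markers, LHX2 among them, had a median of 1.02, with 5 of 7 higher in aNE, so a higher value in aNE was not particular to the rostral genes. From DE to pNE, 3 of the 6 genes (SIX3, SIX6 and VAX1) had more, against 23.4% of all genes, with a median ratio of 1.01 against 0.89. The aNE differences were small, and in numbers of peaks only 1 of the 6 genes had more in aNE than in DE. Both comparisons share the DE list.

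**Figure D4:**
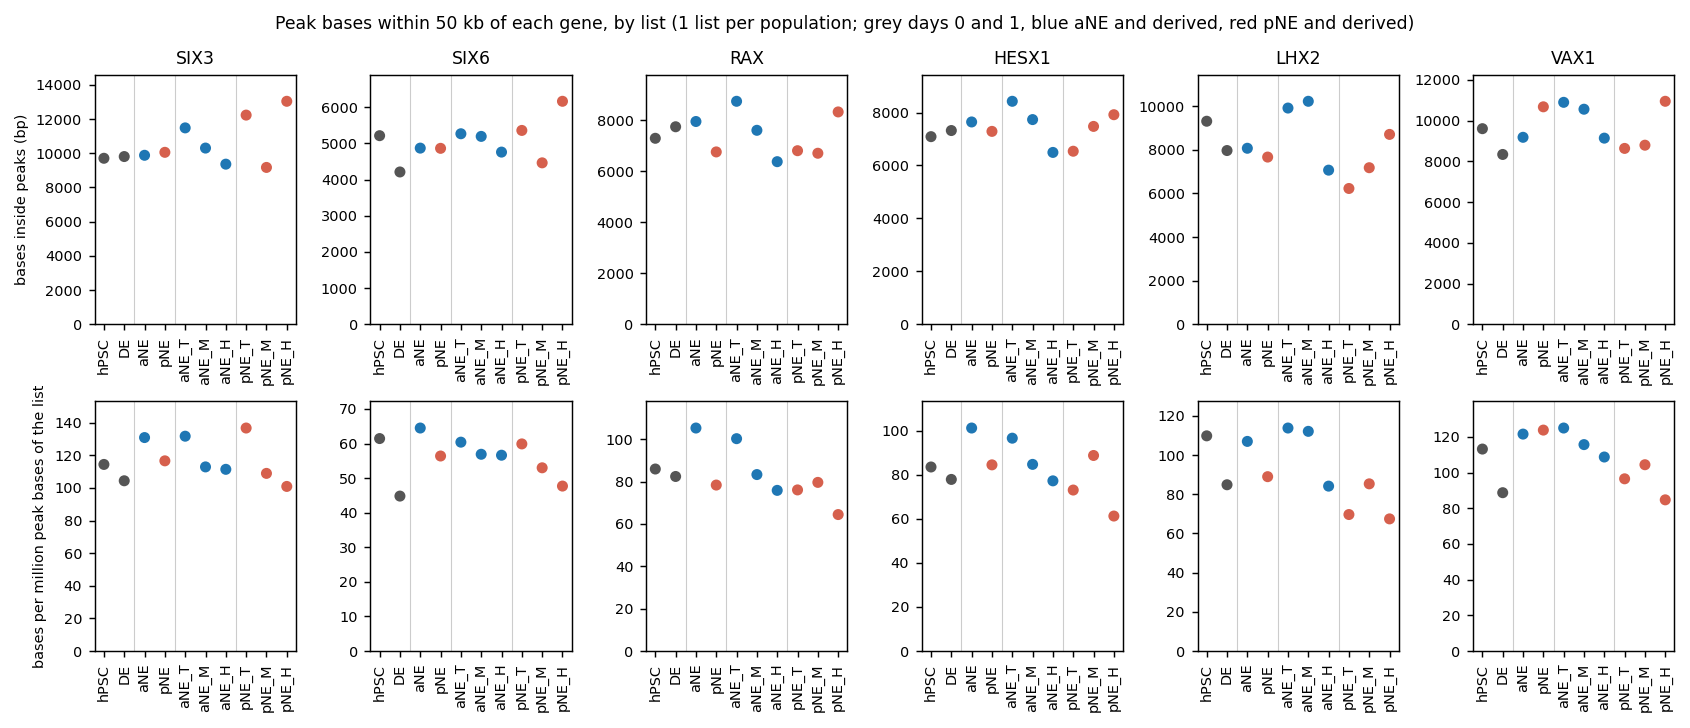
Bases inside peaks within 50 kb of each gene (top row, bp) and the same per Mb covered by the whole list (bottom row), with 1 point per list, since each population has 1 list. Grey points are days 0 and 1, blue points aNE and aNE-derived lists, red points pNE and pNE-derived lists. In the top row pNE_H is the highest point at SIX3, SIX6 and VAX1, and in the bottom row it is the lowest at SIX3, RAX, HESX1, LHX2 and VAX1.

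On day 4 the 3 lists of each origin were first set against each other whatever the medium. Comparisons of the origins within a common medium are given further below. No member had more covered bases in every aNE-derived than in every pNE-derived list, against 1.3% of all genes, and none the converse, against 8.43%. As a share of the list, VAX1 was higher in all 3 aNE-derived lists (125.0, 115.7 and 108.8) than in the 3 pNE-derived ones (96.5, 104.4 and 84.7), against 27.4% of all genes. VAX1 was also the gene with this order in covered bases once the long pNE_H list was left out, a choice made after seeing the data. Its lowest aNE-derived value was then 9138, against 8792 as the highest of pNE_T and pNE_M. The share of all genes with this order was not computed without pNE_H, so nothing particular to VAX1 is read from it. Origin was also compared region by region. Of the 55 member regions open in all 6 day 4 lists, 4 had more bases in every aNE-derived list, against 6.42% of such regions. They were the SIX3 end, the SIX6 region at chr14:60514543-60516411, the inner HESX1 start and chr10:117096550-117097091 near VAX1, which had 438 bp, 428 bp and 501 bp in the aNE-derived and 115 bp, 222 bp and 223 bp in the pNE-derived lists. In 3 the pNE-derived lists all had more, against 7.18%, and these were the SIX3, LHX2 and VAX1 regions given above. Both counts lie near the background, and nothing particular to these genes is read from them.

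Telencephalon medium was compared with hindbrain medium within each origin. In the aNE-derived lists all 6 genes had more covered bases in telencephalon medium, as did 68.4% of all genes. LHX2 had 9920 against 7071 and RAX 8738 against 6372. The median ratio was 1.26 over the 6 genes, 1.14 over the forebrain list (18 of 20 higher), 1.06 over the caudal list (13 of 20 higher) and 1.08 over all genes. In the pNE-derived lists no member had more in telencephalon medium, and 4.79% of all genes did. The median ratio there was 0.82 over the 6 genes, 0.78 over the forebrain and the caudal list and 0.77 over all genes, and the pNE_H list covered 129 Mb against 89.4 Mb in pNE_T. In both origins together the count was thus 0 of 6, against 3.84% of all genes. As a share of the list it was 6 of 6, against 48.5% of all genes, with 17 of 20 in the forebrain list and 12 of 20 in the caudal list. The direction in the pNE-derived lists thus turned on the share scale. It did not turn when each list was limited to its 167792 widest peaks. The ratios of pNE_T to pNE_H were then 0.778 at VAX1 to 0.981 at SIX6. Those of aNE_T to aNE_H were 1.08 at SIX6 to 1.47 at LHX2, and the count in both origins was 0 of 6. That limit makes the number of peaks equal and not the covered bases, and the share of all genes was not computed under it. It therefore cannot show whether the direction depends on the size of the pNE_H list.

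In the same telencephalon medium, the covered bases of aNE_T over pNE_T had a median ratio of 1.27 over the 6 genes (0.94 at SIX3 to 1.59 at LHX2), against 1.06 over all genes. LHX2, RAX, HESX1 and VAX1 had more in aNE_T, and SIX3 and SIX6 more in pNE_T. By number of peaks the ratio was 0.929 at RAX and 0.95 at VAX1, below 1, and 1.17 at SIX6, above 1, and windows of 500 bp at peak midpoints put these genes on the same sides. The SIX6 ratio was also above 1 as a share of the list (1.01) and in windows of 100 kb (1.08). At LHX2 the 9920 bases in aNE_T lay in 25 peaks and the 6230 bases in pNE_T in 15. In midbrain medium each of the 6 genes had more covered bases in aNE_M than in pNE_M. HESX1 had 7735 against 7477 and LHX2 10230 against 7183. As a share of the list HESX1 had less in aNE_M (84.8 against 88.8). The share of all genes with more in aNE_M was not computed. In hindbrain medium the aNE_H to pNE_H ratio ran from 0.72 to 0.83 (median 0.79, against 0.76 over all genes). As a share it ran from 1.10 to 1.28 (median 1.22, against 1.17).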

How the data were processed

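ATAC-seq peak positions were analysed for H1 cells, 30 libraries in 10 populations of 3, with 1 deposited list per population. The deposited values are peak start and end coordinates on hg38 (other units, scores or counts were not used here), and per the submitters' processing notes FastQC, Bowtie2, MACS2, bedtools, featureCounts, edgeR and deepTools were among the tools. Their settings, and how the 3 libraries of a population became 1 list, are not given in the sources used here. The read depth is unknown, so no interval covers library error.

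Coordinates were read as 0-based starts and are printed 1-based. Gene positions and promoter sequences came from RefSeq (GRCh38.p14). All 6 genes matched the gene table, and 5 matched the promoter table (6 entries, SIX3 not among them). Strand came from the promoter entries, and distances at SIX3 were taken from its lower-coordinate end. Covered bases were summed inside each window. Background counts used 19604 protein-coding genes with a peak, 493444 merged regions and 35116 promoters. Scripts (Python 3.11.15, numpy 2.4.6, pandas 2.3.3) were tested on simulated data.

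The members, gene lists and motifs were chosen with earlier results of these data known, so nothing here is independent support. All 6 genes are named. Regions were named by a rule (the start, and the widest regions of each pattern of open lists), and the others described were chosen after their values were seen. The alternatives changed the window, list length, peak width, scale, gene assignment, measure and overlap.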

Additional observations from a re-analysis of the deposited data

Results flagged for a closer look

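At each of the 6 genes, the difference in covered bases between telencephalon and hindbrain medium had opposite signs in the 2 origins, positive in the aNE-derived and negative in the pNE-derived lists. Of all genes, 68.4% had more in telencephalon medium in the aNE-derived lists and 4.79% in the pNE-derived lists. Opposite signs were thus common among all genes and not particular to these 6. With 1 list per population the difference between origins was not tested. The aNE-derived difference exceeded the pNE-derived one by 2928 bases at SIX3 (2121 against -807), 1312 at SIX6 (507 against -805), 3885 at RAX (2366 against -1519), 3312 at HESX1 (1932 against -1380), 5330 at LHX2 (2849 against -2481) and 4071 at VAX1 (1758 against -2313).

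The pNE_H list is the longest of the 10. As a share of the list, in bases per Mb covered by the list, the difference was positive in both origins at all 6 genes, from 3.78 at SIX6 to 29.7 at LHX2 in the aNE-derived lists and from 2.22 at LHX2 to 35.8 at SIX3 in the pNE-derived ones. With each list limited to its 167792 widest peaks all 6 genes had opposite signs. The ratios of telencephalon to hindbrain medium were 1.08 to 1.47 in the aNE-derived and 0.778 to 0.981 in the pNE-derived lists. That limit does not make the covered bases of the lists equal, so it cannot separate the signs from list size.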

How the results depend on the processing

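No paired analysis was possible because each population has 1 list and no value per library, and for the same reason leaving out a replicate was not run. With fixed 500 bp windows at peak midpoints, the genes of 6 numbered 2 for aNE above pNE (4 in the report), 1 for telencephalon above hindbrain medium in both origins (0), 5 for DE above hPSC (3) and 1 for aNE above DE (6). By number of peaks these counts were 2, 1, 5 and 1. As a share of the list they were 6 for medium in both origins, 1 for every aNE-derived above every pNE-derived list (0), 0 for DE above hPSC and 5 for pNE above DE (3). Leaving out pNE_H also gave 1 for origin. Windows of 10 kb gave 1 for DE above hPSC and 5 for pNE above DE. Windows of 100 kb gave 2 for aNE above DE, and lists of one length gave 5 for pNE above DE. Where peaks had to cover 50% of a region, 21 regions were open in all 10 lists (47) and 4 in every aNE-derived and no pNE-derived list (1). The shares of all merged regions given above do not use that rule, so these 2 counts have no background. Under the same rule the converse order also occurred, as at chr2:44943727-44944834 (SIX3), chr14:60510625-60511212 (SIX6) and chr3:57194413-57195016 (HESX1). No excess in the aNE-derived direction is therefore read from the first pattern. Shares of all genes were computed for covered bases and, for some counts, on the share scale, and the other alternatives have none.

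Of 192 recomputed ratios of single genes, 29 crossed 1: 8 as a share of the list, 6 with 500 bp windows, 5 by number of peaks, 4 with peaks given to their nearest gene, 2 each in windows of 10 kb and 100 kb, and 1 each with lists of one length and with the wider 50% of peaks. Those as a share include pNE_T over pNE_H at all 6 genes. By more than 1.5 times 5 ratios moved, all with peaks given to their nearest gene: SIX6 had 0.493 for aNE over pNE, 0.0931 for aNE_T over aNE_H and 0.0746 for aNE_T over pNE_T, and HESX1 had 1.72 and 2.08 for aNE over pNE and aNE_T over pNE_T. Peaks were given to a gene by their midpoint. The aNE and aNE_T peaks over the SIX6 start covered all 300 promoter bases, but their midpoints lay before the gene start, inside C14orf39. They were therefore not counted for SIX6, while the pNE, aNE_H and pNE_T peaks there, with midpoints inside SIX6, were. The SIX6 values thus do not show a loss of open chromatin at its start. The cause of the HESX1 shifts was not tested.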

Other observations

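Over the 10 lists, the share of the list was most alike between RAX and HESX1 (Pearson r 0.920) and least alike between SIX3 and LHX2 (0.287) among pairs of the 6 genes. The protein-coding genes most like each member by the same measure, at least 10 merged regions each, were DYRK3 for SIX3 (0.973), TSFM for SIX6 (0.961), BICRAL for RAX (0.979), SOX13 for HESX1 (0.976), OLIG2 for LHX2 (0.974) and RAI1 for VAX1 (0.951). OLIG2, a neural bHLH factor, and TLX1, a homeobox factor second after BICRAL at RAX (0.969), are developmental transcription factors. The share of such factors among the matches or all genes was not computed, so no theme is read from them. These correlations describe 10 points that share the length of each list, and the genes are the highest of a search over the genome.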
